A study of Mus musculus with 17 samples.

Results

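The nuclear genes that encode subunits of respiratory complexes I, II and III and of the ATP synthase (complex V) were followed in pancreatic cells of mice given streptozotocin (STZ), which enters beta cells, the source of insulin, through their glucose transporter and kills them. Members were the rows of the UMI table whose symbols match Nduf followed by a, b, c, s or v and a digit, Sdha to Sdhd, Uqcr, Cyc1 and Atp5, with a UMI (unique molecular identifier, 1 per captured RNA molecule) in at least 5% of all cells. Of 67 matching symbols, 66 were members out of 40824 genes. The values and counts given here cover 65 of them, with 35 in complex I, 4 in complex II, 9 in complex III and 17 in complex V. The 1 symbol left out was Ndufa4l2, seen in 0.400% of cells. The members nearest the limit were Atp5s in 26.7% of cells, Atp5sl in 33.2% and Ndufb6 in 40.2%.

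Complex I oxidises NADH, complex II (succinate dehydrogenase) oxidises succinate, and both pass electrons through coenzyme Q to complex III. Complexes I and III pump protons across the inner mitochondrial membrane, and complex V uses the return of protons to make ATP. In beta cells, ATP made from glucose carbon closes potassium channels and so couples glucose oxidation to insulin release. The table held 0 genes with an mt- symbol, so the subunits encoded by mitochondrial DNA were not analysed here. Complex IV was kept as a separate list. By what is known of the proteins, 3 genes matched by name are not classical subunits of the complex they are named for: Ndufa4 belongs to complex IV, Atp5sl acts in complex I assembly, and Atp5s is an ATP synthase coupling factor.

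All mice carried Ngn3-Cre and a Rosa-RFP reporter, so that cells with a history of Ngn3-driven Cre activity were sorted by red fluorescence. Adult males aged 2 months received a single intraperitoneal STZ dose of 200 mg/kg after a fast, and the 3 control libraries (Control) came from age-matched males given citrate buffer. STZ mice with insulin implants gave 8 libraries, at days 6, 12, 30 and 42 and months 2, 5 and 9 (STZ_D6 to STZ_M9, 2 of them at STZ_D12), and the implants of STZ_M9 were discontinuous for the last 2 months. Day 6 is read from the name of the group, which the series text also calls day 1. STZ mice without implants at month 2 (STZ_M2_NoIns) gave 2 libraries, and untreated mice at postnatal days 3, 12 and 21 (P3, P12 and P21) gave 1, 2 and 1, with no sex stated. Nothing in the labels says that libraries of a group came from separate animals, so a p-value measures only the spread between libraries, which may be technical.

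The 17 libraries held 2999 cells, between 22 and 295 each, and between 1420536 and 26298456 UMIs in all, with a median of 61193 UMIs per cell. No cell name occurred in more than 1 library. Cells were clustered without the member genes, and clusters were named from marker genes as beta-like (934 cells), alpha-like (584), delta-like, PP-like, acinar-like, ductal-like and immune-like, called beta cells, alpha cells and so on below. Beta cells numbered 21 to 205 per control library, 8 to 65 per STZ library with implants, 5 and 8 in STZ_M2_NoIns and 61 to 101 per postnatal library. Control beta cells lay mainly in clusters 3 (71.4%) and 12 (19.2%), those of the implanted STZ mice in cluster 4 (94.3%) and postnatal ones in clusters 6 (70.3%) and 8 (27.2%), so that each comparison of beta cells was also one between clusters of that class. Beta-cell markers were 5 or 6 of the 10 leading genes of clusters 3, 6 and 12 but 1 of those of cluster 4 (Iapp) and of cluster 8 (Ins1), and 0 markers of another class were among them. Levels are UMIs per 1000000 UMIs of the library's cells of that class (CPM). Differences are log2 values from edgeR with TMM scaling, given with their standard error (SE), and a gene was called where its p, adjusted over all genes tested after Benjamini and Hochberg, was under 0.05.

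Genes of these complexes are a textbook set of targets of nuclear respiratory factor 1 (NRF-1), which binds a GC-rich palindrome. RefSeq start sites of GRCm38.p6 were available for 53 of the 65 members. The letters GCGCA and GCGC with any 1 base between them, on either strand, occurred within 250 bases before the start in 12 of the 53 (22.6%), against 4.23% of 27025 genes. The 12 were Atp5c1, Atp5g2, Atp5h, Atp5k, Ndufa5, Ndufa8, Ndufa11, Ndufb4, Ndufs5, Ndufs6, Sdha and Sdhd. As examples from complexes I, II and V, 6 of the stretches are given here 5′ to 3′ on the gene's strand, with the match in capitals. The capitals are alike because the search fixed their letters.

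Ndufa5 (chr6:24527697-24527726, minus strand): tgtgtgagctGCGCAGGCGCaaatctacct
Ndufb4 (chr16:37654371-37654400, minus strand): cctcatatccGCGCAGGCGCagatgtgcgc
Sdha (chr13:74350276-74350305, minus strand): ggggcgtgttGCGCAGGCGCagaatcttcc
Sdhd (chr9:50603909-50603938, minus strand): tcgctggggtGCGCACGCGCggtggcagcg
Atp5g2 (chr15:102671070-102671099, minus strand): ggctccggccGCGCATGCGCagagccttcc
Atp5h (chr11:115420041-115420070, minus strand): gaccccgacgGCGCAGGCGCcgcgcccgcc

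Ndufb4 and Sdha each held 3 matches. The other motifs searched on both strands were CCGGAAGT (GABPA) in 3 members (5.66%, against 3.23% of genes), CAAGGTCA (ERR-alpha) in 3 (5.66% against 1.51%), GGGGCGGGG (SP1) in 7 (13.2% against 11.8%) and AAGATGGCG (YY1) in 1 (1.89% against 0.71%). The stretches of Ndufa1 and Ndufc2 held none of the 5. A match is a run of letters and not a shown binding site.

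In beta cells of STZ mice with implants, 1 of the 65 genes was called against the controls: Ndufa1, in complex I, rose. The other 64 were not called, and most lay slightly above 0. The share of members called was 1.54%, where 3.01% of the 10350 genes tested were called.

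Ndufa1 encodes a small accessory subunit of the membrane arm and lies on the X chromosome (chrX:37187588-37191163, minus strand). Its level was 676, 648 and 667 CPM in the controls and ranged from 725 (STZ_M2) through a median of 1200 to 1582 CPM (STZ_M5) with implants. No STZ library overlapped the controls, although STZ_M2, with 8 beta cells, came close to them. The means were 663 ± 14.4 CPM (SD, n = 3) and 1186 ± 259 CPM (SD, n = 8), and Ndufa1 rose by 0.84 on the log2 scale (SE 0.19, adjusted p = 0.019, higher in 8 of 8 libraries). Within batch 1, with Control replicate 1 as its only control, the difference was 0.80. With the batch number as a replicate block it was 0.89 with an adjusted p of 0.131. Leaving out any 1 control also ended the call, with adjusted p between 0.078 and 0.128 for differences of 0.84 without replicate 1, 0.79 without replicate 2 and 0.87 without replicate 3.

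The higher level of Ndufa1 was also seen per cell. After each beta cell was thinned to 30681 UMIs, which kept 840 of 934 cells, the mean count of Ndufa1 was between 19.2 and 20.3 UMIs per cell in the controls and between 22.8 and 42.2 in the implanted STZ libraries. Every one of these control and STZ cells held at least 1 UMI of Ndufa1, thinned or not, so the cells differed in the number of molecules and not in detection. Within clusters, control cells stood at 615 to 666 CPM in cluster 3 and at 688 in cluster 12. The 14 cells of 1 control library that fell in cluster 4, with the STZ cells, stood at 624 CPM, and STZ cells there at 696 to 1594. Conversely, the 7 cells of 1 STZ library in cluster 3 stood at 932. These cells are few, and the values carry no test.

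**Figure D1:**
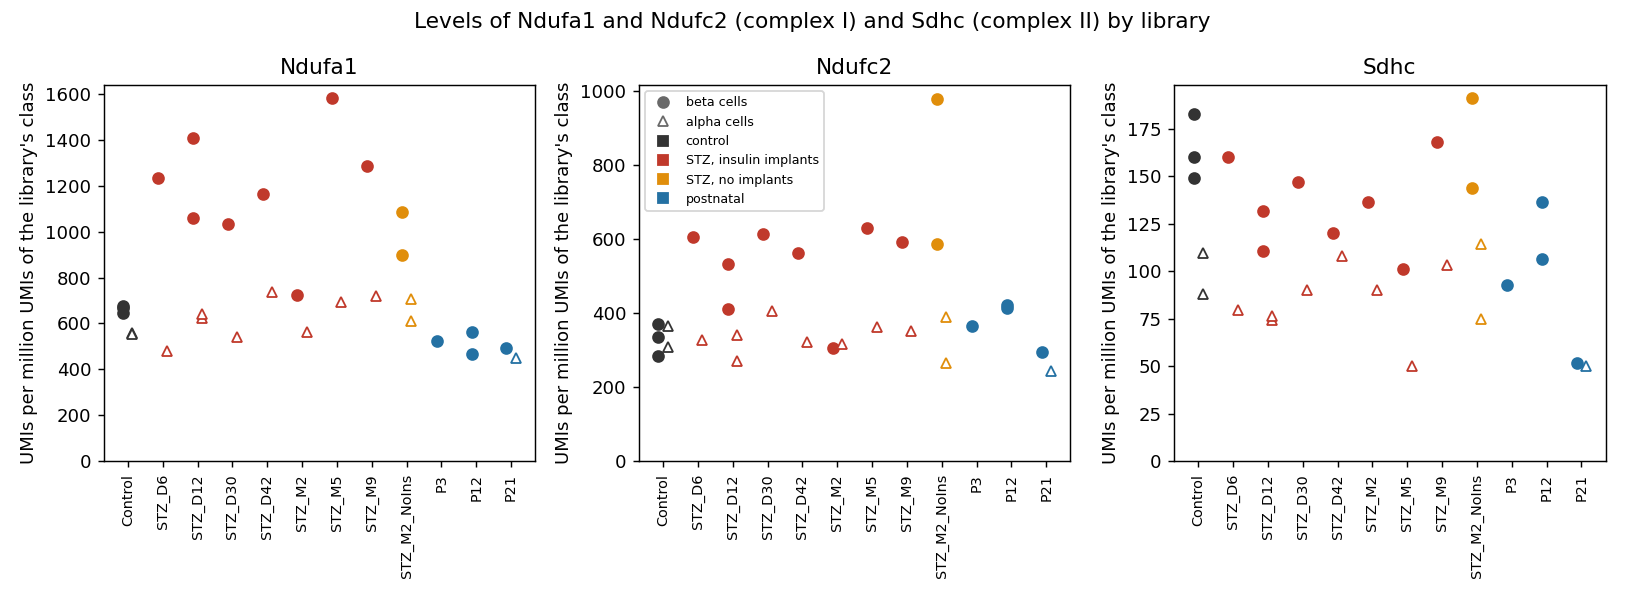
Levels of Ndufa1, Ndufc2 and Sdhc in CPM (vertical axis, from 0) in each group (horizontal axis), with 1 filled circle per library for beta cells, 1 open triangle per library for alpha cells and colours for control, STZ with and without implants and postnatal libraries. Ndufa1 in beta cells is above the controls in all 8 STZ libraries with implants and below them in all 4 postnatal ones, and Sdhc in beta cells is lowest at P21, at 51.8.

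Ndufc2, another accessory subunit of the membrane arm (chr7:97400003-97407802, plus strand), missed the threshold. Its level was 337, 372 and 285 CPM in the controls and ranged from 306 (STZ_M2) through a median of 578 to 631 CPM (STZ_M5). Only STZ_M2 lay within the controls, and the other 7 libraries lay above them. The difference was 0.69 (SE 0.19, adjusted p = 0.059). After thinning, its mean count was 8.42 to 10.9 UMIs per cell in the controls and 10.5 to 17.5 in the implanted STZ libraries. Among the remaining 33 genes of complex I none was called, and over the 35 there were 27 values above 0 and 8 below, with a median of 0.11.

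The 4 genes of complex II, which unlike the other complexes is encoded in the nucleus alone, moved in both directions with none called. The catalytic flavoprotein gene Sdha differed by -0.15 and the iron-sulfur subunit gene Sdhb by 0.07. Of the membrane anchors, Sdhc (chr1:171127165-171150603, minus strand) differed by -0.29 and Sdhd by 0.43 (SE 0.18, unadjusted p = 0.029, adjusted p = 0.303). Sdhd was 159, 177 and 193 CPM in the controls and 181 to 278 CPM with implants, with STZ_D6 and STZ_M2 inside the control range.

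All 9 genes of complex III had values above 0 with a median of 0.14, and none was called. The members with the highest control level there, Uqcr11 (0.03) and Uqcrb (0.04), which encode small subunits, were close to 0, and the hinge protein gene Uqcrh reached 0.45 (SE 0.19, adjusted p = 0.301). Of the 17 genes of complex V, 15 had values above 0 with a median of 0.18, and none was called. Atp5g1, which encodes subunit c of the proton-carrying ring (chr11:96068852-96075670, minus strand), was 397, 436 and 424 CPM in the controls and 444 (STZ_M2) to 716 CPM (STZ_M5) with implants, without overlap, and differed by 0.46 (SE 0.16, adjusted p = 0.171). The other genes for the same subunit, Atp5g2 and Atp5g3, differed by 0.23 and 0.18, and the abundant Atp5e and Atp5l, which encode small subunits, by 0.09 each.

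Over the 65 members 53 values were above 0 (81.5%) and the median was 0.13, against 49.5% and 0.00 over all genes tested. With totals taken without the 7 hormone genes and no TMM, Ndufv3, Uqcr11 and Uqcrb changed from above 0 to below it. Only the members named by rule were followed singly there, so sign changes of the others are not given. Without regard to direction, 61 of the 65 intervals of 2 SE to either side lay within 1 log2 unit of 0, and 63 members differed by under 0.5. Levels of every implanted STZ library lay above every control for 4 members (Atp5f1, Atp5g1, Ndufa1 and Ndufs4; 6.15%, against 2.04% of genes tested) and below every control for 0 (2.49% of genes tested). At an unadjusted p under 0.05 there were 8 members above 0 and 0 below (12.3%, against 12.6% of all genes). The median was 0.15 over the 12 members with an NRF-1 match and 0.13 over the 41 others with a sequence.

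**Figure D2:**
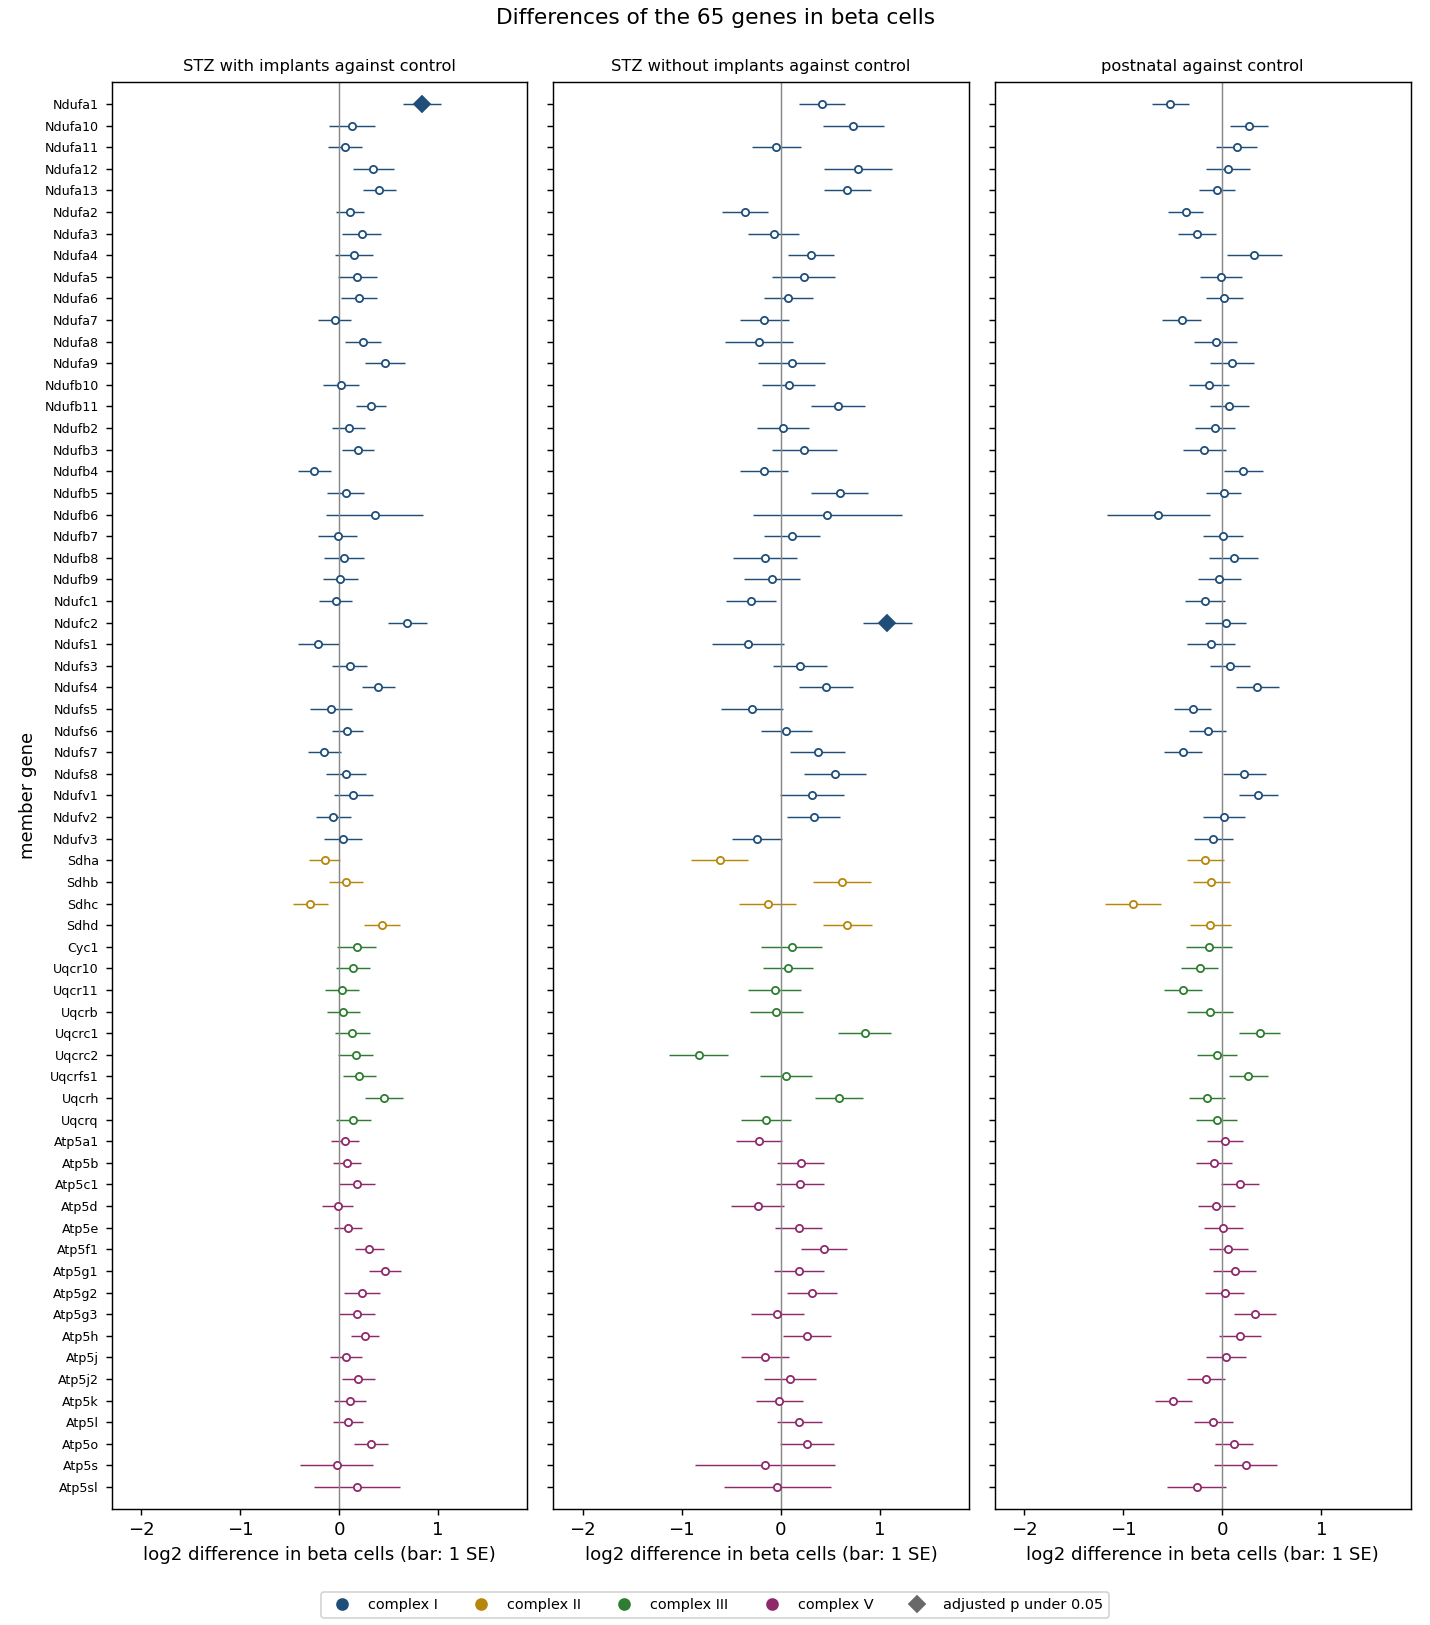
Log2 differences in beta cells against the 3 controls (horizontal axis, bars of 1 SE) for each of the 65 genes (vertical axis, coloured by complex), with STZ libraries with implants on the left, STZ without implants in the middle and postnatal libraries on the right. Filled diamonds mark genes called: Ndufa1 on the left, Ndufc2 in the middle and no gene on the right; the panels share the control libraries.

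Other things moved with the STZ libraries. The hormone genes took 24.4% to 25.3% of UMIs in control beta cells and 15.6% to 28.2% with implants. Of the 4 PP-cell genes listed, 3 were called higher and 1 lower, with a summed level of 2780 to 5598 CPM in controls and 7908 to 31562 CPM with implants, and of 5 delta-cell genes tested 1 was called higher, from 1123 to 2632 CPM summed in controls to 2108 to 8620 CPM. Of 15 acinar-cell genes 0 were called (8784 to 39313 against 22951 to 40785 CPM), 1 of 7 ductal-cell genes tested was called higher, 1 of 8 alpha-cell genes was called in each direction, and the 9 immune-cell genes summed to 19.7 to 34.2 CPM in controls and 4.25 to 113 CPM with implants. The ductal-cell gene called, Tspan8, is also on the PP-cell list and is among the 3 genes called higher there. Mixed cells, in which a hormone or enzyme of another class reached 1000 per 100000 UMIs, were 23 of 364 control cells and 77 of 244 STZ cells, and without them Ndufa1 was 0.92 higher (adjusted p = 0.015). Reads of overlapping genes cannot be told apart unless strand was used, and 27 of the 65 members overlap an annotated gene.

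Genes that work beside these complexes showed few calls in the same comparison. Of 12 complex IV genes tested, only Cox6a2, an isoform of heart and skeletal muscle, was called. It was at 331, 289 and 348 CPM in the controls and at 0 to 63.1 CPM with implants, and it fell by 3.62 (SE 0.62, adjusted p = 0.0019). The next list held 11 genes: cytochrome c, the carriers of adenine nucleotides, phosphate and acylcarnitine, Vdac1, Vdac2, Vdac3, Ucp2, Atpif1 and Usmg5. Only the acylcarnitine carrier Slc25a20 was called there, 1.17 higher (SE 0.29, adjusted p = 0.032). None was called among 23 assembly factors (median -0.16, 14 of 23 below 0), 18 genes of the tricarboxylic acid cycle (median -0.01), 8 regulators of mitochondrial biogenesis (median -0.28, 7 of 8 below 0) or 46 mitochondrial ribosomal proteins (median 0.04). Of 8 hypoxia response genes, 3 were called higher, among them Pdk1, the kinase that restrains pyruvate dehydrogenase, by 1.59 (SE 0.24, adjusted p = 0.00055), and the list's median was -0.18.

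Without implants, Ndufc2 rose in beta cells of STZ_M2_NoIns, and the remaining 64 members were not called. The share called was 1.54%, where 2.67% of 13348 genes were. These libraries held 5 and 8 beta cells, all in cluster 4.

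Ndufc2 was at 980 and 587 CPM, both above the controls at 285 to 372, and rose by 1.08 (SE 0.25, adjusted p = 0.027). With the batch block it was 0.99 with an adjusted p of 0.068. Over libraries left out in turn it ranged from 0.68 to 1.41, and without any 1 control its adjusted p was 0.074 to 0.106. Ndufa1, at 897 and 1084 CPM, also lay above the controls but was not called (0.42, adjusted p = 0.361). Both libraries were above all controls for 25 members (38.5%, against 13.4% of genes tested) and below them for 3 (Ndufa2, Ndufs5 and Uqcrc2; 4.62%, against 21.1%). The core subunit genes of complex III went apart, with Uqcrc1 0.85 (SE 0.27, adjusted p = 0.104) and Uqcrc2 -0.83 (SE 0.30, adjusted p = 0.151). The median was 0.11 over the members and -0.22 over all genes. Without any 1 control there were 0 members called, so the call of Ndufc2 needed all 3 controls. Leaving out either STZ_M2_NoIns library left 1 library in that group, so no count is given for it. The implanted, implant-free and postnatal comparisons share the 3 control libraries, so their values are not independent of each other. Of these 13 beta cells 9 were mixed cells. PP-cell genes summed to 51829 and 20945 CPM (2780 to 5598 in controls) with 3 of 4 called higher, and alpha-cell genes to 10611 and 13564 CPM (4565 to 9596) with 1 of 8 called higher. Of the delta-cell, ductal-cell and stromal or blood-cell genes tested, 1 of 6, 1 of 11 and 1 of 4 were called higher. Acinar-cell genes summed to 5271 and 70998 CPM (8784 to 39313) with 0 of 15 called. Their part was not tested.

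Between STZ_D6 and STZ_M9 no member was called for a trend over the time after STZ in the 8 libraries with implants. The slope per doubling of days was called for 0 of 65 members and 0 of 9798 genes by edgeR (0.00% called), with 0 members and 255 genes at an unadjusted p under 0.05. DESeq2 gave 0 members as well, and so did edgeR without STZ_D6, whose day is in doubt. The lowest p among members were those of Ndufv2, a core subunit of the NADH-oxidising module (slope 0.09, SE 0.05, unadjusted p = 0.091), and Ndufb6, an accessory subunit of the membrane arm (slope -0.20, SE 0.12, unadjusted p = 0.131). The slopes of Ndufa1 and Ndufc2 were 0.02 each (SE 0.06 each).

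Postnatal libraries were compared with the adult controls to follow the maturation of beta cells. With the 4 libraries as 1 arm, edgeR called 0 of 65 members, where 0.464% of 12073 genes were called. An unadjusted p under 0.05 was held by 3 members (4.62%, against 11.1% of all genes), all below 0: Sdhc, Ndufa1 and Atp5k. DESeq2 called 0 members as well. By age, edgeR and DESeq2 called 0 and 0 of 65 members at P3, 0 and 1 at P12 and 0 and 1 at P21. Of 13348 genes, edgeR called 0.390% at P3, 0.592% at P12 and 0.00749% at P21. Members with an unadjusted p under 0.05 by edgeR numbered 1 at P3 (1.54%, against 7.64% of genes), 3 at P12 (4.62% against 7.51%) and 1 at P21 (1.54% against 1.73%). P3 and P21 had 1 library each, assumed to vary like the replicated groups. The order of the ages was not tested.

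Sdhc, a membrane anchor of complex II, had the lowest value. It was 149, 160 and 183 CPM in the controls, 92.9 at P3, 106 and 137 at P12 and 51.8 at P21, so that all 4 postnatal libraries lay below the controls. The difference was -0.90 (SE 0.28, adjusted p = 0.195), and without the filter on low counts it was -0.91 with an adjusted p of 0.0046. In every other alternative run it was not called, with adjusted p from 0.084 (DESeq2) to 0.797 (batch block). By age it was -1.09 at P3 (SE 0.37, adjusted p = 0.362) and -1.86 at P21 (SE 0.39, adjusted p = 0.359). The P21 value passed the threshold with DESeq2 (-1.84, adjusted p = 0.0014), without the filter (-1.86, adjusted p = 0.012) and with mixed cells left out (-2.06, adjusted p = 0.032). It did not pass with limma (-1.84, adjusted p = 0.604), the batch block (-1.795, adjusted p = 0.477) or totals without hormone genes (-1.71, adjusted p = 0.508). Nor did it pass without any 1 control (-1.74 to -1.92).

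Ndufa1 went the other way from its STZ value, at 467 to 563 CPM, all below the controls at 648 to 676, with a difference of -0.53 (SE 0.19, adjusted p = 0.269). Ndufa4 was at 998 and 895 CPM in the P12 libraries against 513 to 556 in the controls, a difference of 0.75 at that age (SE 0.23, adjusted p = 0.226 by edgeR and 0.72 with an adjusted p of 0.017 by DESeq2), while P3 (582) and P21 (445) lay near the controls. Atp5k, which encodes a small membrane subunit of the ATP synthase, was at 388 to 447 CPM in the controls, 324 at P3, 308 and 286 at P12 and 391 at P21. P21 alone lay within the controls, and the difference over the 4 libraries was -0.50 (SE 0.19, adjusted p = 0.30), with -0.62 at P3 (SE 0.31, adjusted p = 0.677) and -0.55 at P12 (SE 0.24, adjusted p = 0.556).

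Over the 65 members the postnatal values were split, 30 above 0 and 35 below, with a median of -0.05 against 0.02 over all genes. All 4 genes of complex II and 7 of 9 of complex III lay below 0, and 11 of 17 of complex V above. At P12 there were 43 values above 0 (66.2%, against 48.2% of all genes), with a median of 0.08 against -0.01 over all genes. At P21, with 1 library, 54 lay below 0 and 16.9% above (48.1% of all genes), with a median of -0.19 against -0.01. Mitochondrial ribosomal proteins also lay mostly below 0 at P21 (40 of 47). Levels in all 4 libraries were above every control for 8 members (Atp5a1, Atp5c1, Atp5h, Ndufa10, Ndufb4, Ndufv1, Uqcrc1 and Uqcrfs1; 12.3%, against 9.34% of genes) and below for 3 (Ndufa1, Ndufa2 and Sdhc; 4.62%, against 3.39%). With totals taken without hormone genes the median of all genes moved from 0.02 to 0.14 and that of the members to 0.06. With the 4 libraries as 1 arm, none of the lists of complex IV, carriers, assembly factors, tricarboxylic acid cycle, biogenesis and mitochondrial ribosome held a called gene, and at P3 alone 1 of 14 complex IV genes, Cox6a2 (12.7 CPM), was called lower. Acinar-cell genes were lower in these beta cells (15 of 15 below 0, 4 called; 1625 to 18019 CPM summed, against 8784 to 39313 in controls), and their part was not tested.

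In alpha cells, endocrine cells that make glucagon, 0 of 65 members were called between implanted STZ and control libraries. Here edgeR called 0 of 11085 genes (0.00%), with 0 members and 433 genes at an unadjusted p under 0.05, and DESeq2 called 0 members. Ndufa1 was at 559 and 554 CPM in the 2 control libraries with at least 10 alpha cells and at 479 to 736 CPM in the 8 STZ libraries. The groups overlapped, and the difference was 0.20 (SE 0.21, adjusted p = 1). Ndufc2 was at 366 and 310 CPM and at 272 to 405 CPM, with a difference of 0.04 (SE 0.22). The lowest p among members were those of complex III genes, Uqcr10 (-0.43, SE 0.22, unadjusted p = 0.067) and Cyc1, the cytochrome c1 gene (-0.53, SE 0.28, unadjusted p = 0.073), and without control replicate 1 Cyc1 stood at 0.01. Every STZ library lay above every control for 0 members (1.86% of genes) and below for 2, Atp5j and Uqcr10 (3.08%, against 2.35% of genes). The median over members was -0.03, and 61 of 65 intervals of 2 SE lay within 1 log2 unit of 0.

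All 15 acinar-cell genes lay above 0 in STZ alpha cells (median 1.19, 0 called), and 60 of 67 control and 227 of 349 STZ alpha cells were mixed cells, so that no fit was run without them. Their part was not tested. STZ without implants against STZ with implants gave 0 called members in alpha cells (0.0271% of genes called), with Sdhd 0.55 (SE 0.24, adjusted p = 0.952) and Cyc1 0.61 (SE 0.28, adjusted p = 0.952) lowest in p.

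The difference between the STZ effects in beta and alpha cells was tested directly in 7 STZ and 2 control libraries, with the library as a block. No member passed, where 0.365% of 11789 genes were called. At an unadjusted p under 0.05 there were 4 members (6.15%, against 7.05% of all genes), all with the higher effect in beta cells. The effect on Ndufa1 was 0.74 higher in beta cells (SE 0.21, unadjusted p = 0.0020, adjusted p = 0.171) and that on Ndufc2 0.66 higher (SE 0.22, adjusted p = 0.348). DESeq2 called 1 member, Ndufa1 (0.77, adjusted p = 0.019). The higher level of Ndufa1 after STZ was therefore not shown by edgeR to differ between beta and alpha cells.

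Across cell classes the summed share of the 65 genes is a description, since classes came from clusters of the same cells. Over all cells they gave 15.7 of each 1000 UMIs. In beta cells the share was 17.9 to 19.7 per 1000 UMIs in controls, 17.3 to 24.1 in implanted STZ libraries, 20.2 and 26.3 without implants and 18.4 to 22.1 in postnatal libraries. The ranges of the implanted STZ and postnatal libraries overlapped that of the controls, and both libraries without implants lay above every control. With hormone genes taken out of the totals, control and implanted STZ beta cells stood at 23.9 to 26.2 and 24.1 to 28.6, and those without implants at 23.7 and 31.3, below and above the controls.

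Alpha cells ranged from 16.6 to 23.2 per 1000 UMIs, delta cells from 14.6 to 21.4 and PP cells from 14.5 to 19.6. Acinar cells had the lowest mean, with a range of 8.36 to 14.6, and ductal cells the highest, with a range of 21.02 to 26.9 that overlapped those of beta, alpha and delta cells. The place of ductal cells by the mean over libraries turned with the totals used. With the hormone genes taken out, beta cells had the higher mean, at 23.6 to 31.3 (mean 26.2) against 21.3 to 27.3 (mean 24.8) in ductal cells. Taking out 15 acinar genes as well brought acinar cells to 14.0 to 19.9, beta cells to 23.8 to 31.5 and ductal cells to 21.8 to 27.9.

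**Figure D3:**
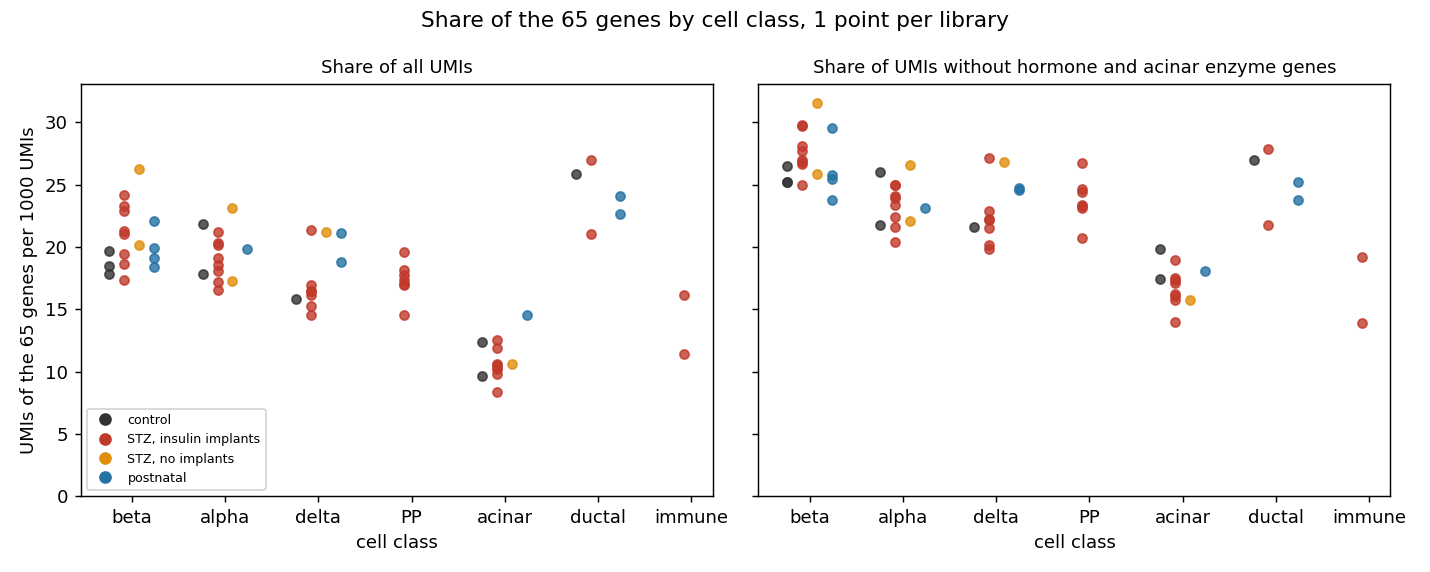
UMIs of the 65 genes per 1000 UMIs (vertical axis, from 0) in each cell class (horizontal axis), 1 point per library and colours for the arms, on the left over all UMIs and on the right without 7 hormone and 15 acinar genes. On the left, acinar cells, at 8.36 to 14.6, lie mostly below the other classes, with some immune, delta and PP points at the level of the highest acinar one or below it, and ductal cells lie at 21.02 to 26.9. On the right, beta cells reach above ductal cells.

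Gene by gene, the mean CPM was highest in ductal cells for 49 of the 65 members and lowest in acinar cells for 50. With hormone genes out of the totals ductal cells were highest for 34 and beta cells for 20, and with the acinar genes out as well ductal cells were highest for 28, beta cells for 21, and acinar cells lowest for 32. Over all UMIs and all 17 libraries, beta cells were highest for 9, led by Ndufa1 (912 CPM, 2.1 times the mean of the other classes), Ndufc2 (489 CPM, 1.83 times) and Ndufv3, an accessory subunit of the NADH-oxidising module (575 CPM, 1.71 times). These means include the STZ libraries, in which Ndufa1 and Ndufc2 stood higher. In the beta cells of the controls alone Ndufv3 was at 567 CPM (1.69 times), Ndufa1 at 663 (1.53 times, with alpha cells next at 606) and Ndufc2 at 331 (1.24 times), below the delta-cell mean of 349. Sdhc had the highest ratio there, at 164 CPM (1.77 times), and beta cells were highest for 4 members. In alpha cells the leaders were the ATP synthase genes Atp5e (1.65 times) and Atp5l (1.58 times) and the complex I gene Ndufa6 (1.46 times).

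Ndufs1, which encodes the largest core subunit of complex I, led in PP cells (1.64 times), Atp5s in delta cells (1.37 times) and Uqcrq, a small subunit of complex III, in acinar cells (1.53 times). A leader by this ratio can stand higher in another class. Atp5s was at 22.1 CPM in delta and 23.4 in PP cells, and Ndufa6 at 675 in alpha and 715 in ductal cells. In ductal cells Ndufa3 (2.64 times) and Cyc1 (2.23 times) lay above every library of every other class, and Ndufa3 ran from 456 to 810 CPM there against class means of 189 to 271. Ndufa1 was the 1 member with its lowest class mean in ductal cells, at 242 CPM. Immune cells, with 2 libraries, had no member with their highest mean.

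**Figure D4:**
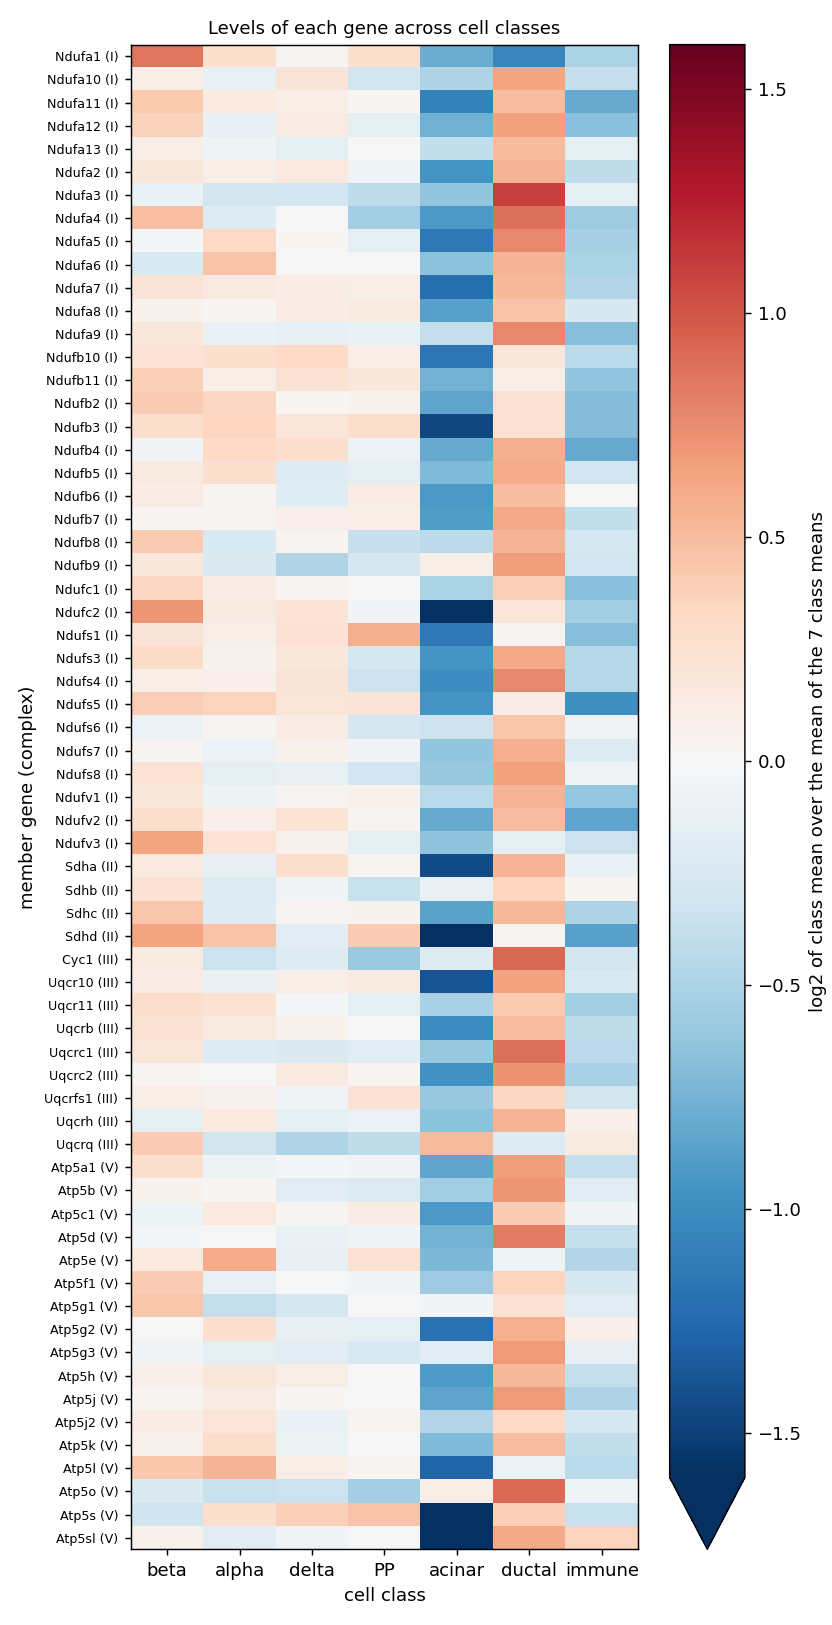
Log2 of each class mean, as CPM over all UMIs and all libraries, over the mean of the 7 class means (colour) for the 65 genes (vertical axis, with the complex) in the 7 cell classes (horizontal axis). The ductal column is red for most genes and the acinar column blue, and the beta column is reddest for Ndufa1 and Ndufc2.

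The ring of the ATP synthase is built from subunit c, whose mature protein is the same from each of 3 genes. In beta cells Atp5g1 gave 52.0% ± 4.94 (SD, n = 17) of their UMIs, Atp5g2 23.8% ± 3.45 and Atp5g3 24.2% ± 3.90. In alpha cells Atp5g1 gave 36.9% ± 3.98 (SD, n = 13) and Atp5g2 35.2% ± 4.97. The ranges of Atp5g1 over libraries, 45.0% to 61.2% in beta cells and 30.6% to 44.3% in alpha cells, did not overlap. Acinar cells resembled beta cells in Atp5g1 (53.9% ± 6.39, n = 12) but had the lowest share of Atp5g2 (14.5% ± 2.79).

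**Figure D5:**
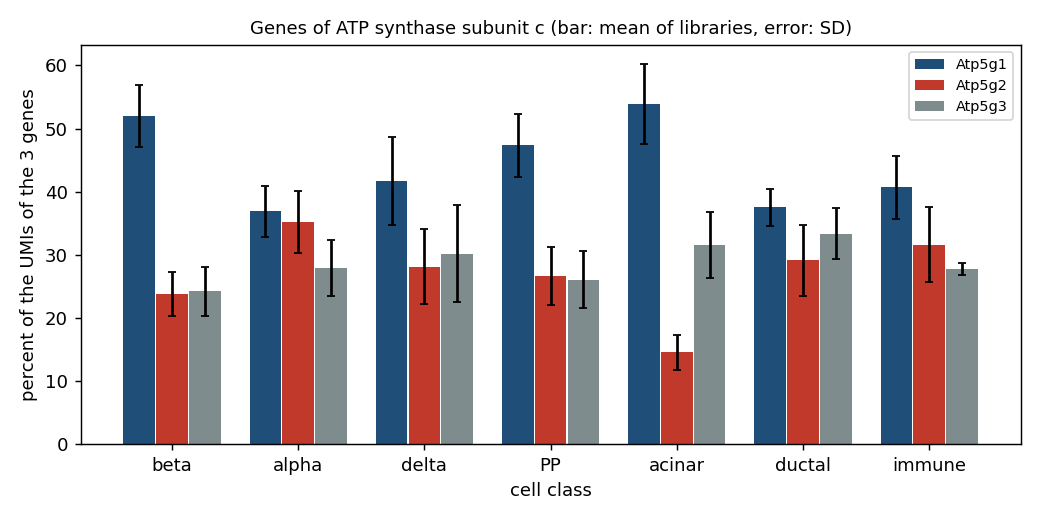
Percent of the UMIs of Atp5g1, Atp5g2 and Atp5g3 (vertical axis, from 0) in each cell class (horizontal axis), as means of libraries with error bars of 1 SD. Atp5g1 gives 52.0% in beta cells and 36.9% in alpha cells.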

How the data were processed

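The authors deposited UMI counts per gene and cell from a modified STRT-seq protocol. The submitters' processing notes name UMI-tools 0.5.0, SAMtools 1.3.1, featureCounts 1.5.3, TopHat2 2.1.0 and the mm10 build. Their order, the use of strand and any filter on cells are not given in the sources used here. No cell was left out here, and 0 columns were unmapped. A deposited table of scaled signal values was not used.

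Cells were clustered (leidenalg 0.10.2, scikit-learn 1.9.0, Python 3.11.15) without the member genes on 300 variable genes, 15 principal components and 20 neighbours, at resolution 1.0 and again at 0.3 in clusters of at least 100 cells. These settings were chosen after seeing the data. Clusters were named by marker lists, 235 cells stayed unnamed, and no doublet caller was run. A class entered for a library with at least 10 cells (5 for beta cells).

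UMI counts summed per library and class were tested with edgeR 4.0.16 under R 4.3.3 (filterByExpr, TMM, quasi-likelihood F test, Benjamini-Hochberg adjustment over all genes), after tests on simulated data. The SE is the absolute log2 difference over the square root of F. Fits used the arms compared, except that single ages and STZ_M2_NoIns came from 1 fit over all groups and alpha cells from 1 fit of 3 arms. Named members were those called, or the 2 lowest in p where none was, the 2 with the highest level in control beta cells per complex, all of complex II, the subunit c genes, Ndufa4, and the 3 leading each class; others were named after their values were seen. Ndufab1 is not matched by the rule. Of the 66 members, 1 is not reported here, and the counts, medians and summed levels cover the other 65. Members and lists were chosen with earlier results of these data known. Gene positions are those of GENCODE M21 (GRCm38), while the printed stretches lie before RefSeq starts. By the GENCODE positions, the printed stretches of Ndufa5, Ndufb4 and Atp5g2 lie within the gene, and that of Sdha crosses its start. The labels call the replicate number a batch. Same-numbered libraries of different arms had deviations correlated at -0.08 to 0.11 (median 0.00, 48 pairs) and others at -0.09 to 0.12 (median -0.01, 50 pairs). Alternatives were DESeq2 1.42.0, limma 3.58.1 on log2 CPM, other totals, filters and cells, thinning, the block, and each library left out.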

Additional observations from a re-analysis of the deposited data

Results flagged for a closer look

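Of 54 groups of 4 to 10 library values examined, 4 held a library far from the rest of its group, where chance gives about 1 in 20. In implanted STZ beta cells, Atp5l was at 925 CPM in STZ_D12 replicate 2 and at 678 to 766 CPM in the other 7 libraries, and Ndufv3 was at 300.5 CPM in STZ_M2 (8 beta cells) and at 526 to 683 CPM in the others. In postnatal beta cells, Cyc1 was at 127 CPM in P12 replicate 1 and at 86.0 to 89.7 CPM in the other 3. In implanted STZ delta cells, the 65 genes gave 21.4 of each 1000 UMIs in STZ_M9 and 14.6 to 16.9 in the other 6.

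Atp5h, which encodes a subunit of the peripheral stalk of the ATP synthase, lay above the control mean in beta cells in all 8 implanted STZ libraries (mean 482 CPM) and below the control mean in alpha cells in all 8. That opposite direction was picked by the values. Control alpha cells had 2 libraries, at 664 and 467 CPM, and 7 of the 8 STZ libraries lay between them.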

How the results depend on the processing

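The number of members called depends on the processing. For implanted STZ beta cells it was 1, and became 3 with DESeq2 and with libraries of at least 20 beta cells, 0 with the batch number as a replicate block, 2 after thinning every cell alike, and 0 to 3 over libraries left out (0 without any 1 control, 3 without STZ_M2). Batch 1 and the 4 libraries sharing a read-file prefix (an alternative chosen after seeing the data) each held a single control library, so their calls are not counted. For postnatal beta cells it was 0, and became 1 without the low-count filter. For P12 it was 0, and became 1 with DESeq2; for P21 it was 0, and became 1 with DESeq2, 1 without the filter and 1 without mixed cells. For STZ_M2_NoIns it was 1, and became 5 with DESeq2, 0 with the replicate block and 0 to 9 over libraries left out. For the difference between beta and alpha cells it was 0, and became 1 with DESeq2. The P3, trend and alpha-cell comparisons kept 0 under every alternative run. Shares of all genes called are not set beside the counts of the alternatives, so these counts are not read as a result about the members. The causes were not tested. The class order without hormone or acinar genes in the totals, and that with beta cells of the controls alone, were also chosen after seeing the data.

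Ndufa1 stayed above the controls in implanted STZ beta cells under every alternative run, from 0.65 to 0.93. In implanted STZ beta cells, uncalled members near 0 changed sign among those named by rule, the only ones followed singly. With totals without hormone genes Ndufv3 was -0.044, Uqcr11 -0.041 and Uqcrb -0.030. With the block Ndufv3 was -0.056, and with at least 20 beta cells Uqcr11 was -0.016. In batch 1 only, Atp5e was -0.046, Atp5g2 -0.016, Atp5g3 -0.045, Atp5l -0.083, Ndufv3 -0.18, Sdhb -0.022 and Uqcr11 -0.024. In the 4 libraries sharing a prefix, Atp5g3 was -0.085, Ndufv3 -0.17, Sdha 0.0062, Sdhb -0.0065, Uqcr11 -0.068 and Uqcrb -0.018. Over libraries left out, Uqcr11 ranged from -0.056 to 0.076 and Ndufv3 from -0.049 to 0.14, and in alpha cells Cyc1 ranged from -0.91 to 0.012.

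Over all genes, the 312 calls of the implanted STZ comparison became 541 with DESeq2, 514 without the filter, 181 with limma and 146 with the block, and the 56 postnatal calls became 249, 461 and 2 with DESeq2, without the filter and with the block. The block changed no call of a member other than those given for Ndufa1 and Ndufc2. Leaving out mixed cells was not run without implants, in alpha cells or for the difference between classes, where too few cells remained. The median SE of a member was 0.18 for implanted STZ and 0.27 without implants, so a change well under 1 log2 unit can go uncalled. Intervals of 2 SE lay within 1 log2 unit of 0 for 61 and 48 of the 65 members.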
